A study of Mus musculus with 574 samples.

Results

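Cells that transcribe Barhl1 were compared between E13.5 and E12.5 (E for embryonic day) in the developing ventral midbrain of the mouse. A cell was taken as a Barhl1 cell when its RPKM (reads per kilobase of transcript per M mapped reads) of Barhl1 was at least 10. This gate held 50 single cells at E13.5 and 52 at E12.5, together 18.5% of the 550 single cells of the series, and 95 cells at E13.5 and the larger part of those at E12.5 lay outside it. The cells were chosen by their level of Barhl1, so that level is given as a description of them.

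The embryos of both stages were C57BL/6 mice heterozygous for Lmx1a-EGFP, a reporter driven by the gene of the LIM homeobox factor Lmx1a. Single cells were sequenced with Smart-seq2, which copies full-length transcripts. The E13.5 cells have titles that start with G, and the E12.5 cells have titles that start with C or F, with letters whose meaning the labels do not state. No embryo or litter is named, so each stage counts as 1 sample, cells are not replicates, and no p-value was formed. The study concerned how closely the dopamine and subthalamic lineages resemble each other as they differentiate.

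Barhl1 encodes a BarH-like homeobox factor, and in the embryonic caudal hypothalamus it marks cells that give rise to neurons of the subthalamic nucleus. These neurons use glutamate, and they share Lmx1a, Lmx1b and Foxa1 with the neighbouring lineage of dopamine neurons. As a progenitor becomes a neuron it leaves the cell cycle, loses Notch signalling and its targets of the Hes family, and gains the cytoskeleton of an axon, guidance receptors and the machinery of transmitter release.

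Hes5, a transcriptional repressor switched on by Notch, was the progenitor gene with the largest decrease among the genes named here, and the window at its start is shown because genes under Notch are switched on through the factor RBPJ. The window runs from 250 bases before to 50 bases after the annotated start at chr4:154960673-154960972 on the plus strand (GRCm38.p6, sequence from RefSeq), with the RBPJ motif GTGGGAA and its reverse complement TTCCCAC in capitals.
Hes5: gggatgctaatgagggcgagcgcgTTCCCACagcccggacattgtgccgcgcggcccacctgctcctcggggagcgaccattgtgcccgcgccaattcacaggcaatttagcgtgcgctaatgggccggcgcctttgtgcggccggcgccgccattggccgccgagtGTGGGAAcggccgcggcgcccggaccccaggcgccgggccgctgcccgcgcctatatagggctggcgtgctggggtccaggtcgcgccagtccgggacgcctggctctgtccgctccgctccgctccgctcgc
The motif stood 83 to 77 bases before the start on the strand shown and 226 to 220 bases before it on the other strand. Of 32851 windows of this length, 6.38% held the motif on either strand. Of the 15 neural progenitor genes listed for the comparison, 12 had a window, and Hes5 was the only one of these with the motif. Counted by gene, 7.25% of 27025 genes had it. Hes1 had no window and was not examined. A match in a window is a description and does not show that RBPJ binds there.

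Barhl1 itself was at similar levels at both stages. Barhl1 cells made up 34.5% of cells at E13.5 (exact 95% Clopper-Pearson interval 26.8 to 42.8%) and 29.2% at E12.5 (22.7 to 36.5%). Intervals here and below cover counting error of cells only. They leave out differences between embryos, because each stage counts as 1 sample. The reads carry no molecular identifiers. Inside the gate Barhl1 had a lowest value of 23.1, a median of 441 and a highest value of 5914 RPKM at E13.5, against 19.1, 512 and 3683 RPKM at E12.5. The threshold fell in a sparse range: no cell at E13.5 and 1 cell at E12.5 lay between 10 and 20 RPKM, and no cell at E13.5 and 2 cells at E12.5 lay between 5 and 10 RPKM. Both series of E12.5 titles held the cells at similar shares, 28.6% of C cells (18 cells) and 29.6% of F cells (34 cells).

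**Figure D1:**
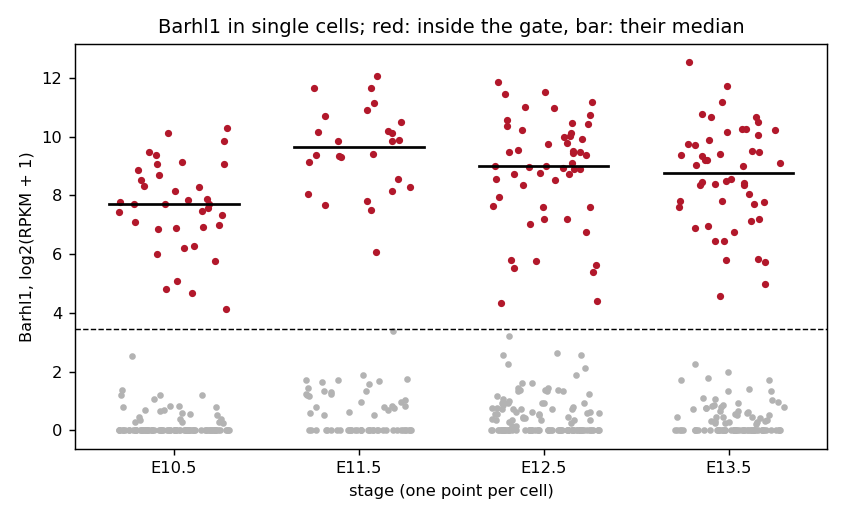
Barhl1 in every single cell of the 4 stages, as log2(RPKM + 1) on the vertical axis and stage on the horizontal axis, with the gate of 10 RPKM dashed, cells inside it in red and a bar at their median. The red cells lie well above the dashed line, with medians of 441 RPKM at E13.5 and 512 RPKM at E12.5.

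The label was checked against genes of young glutamatergic neurons and of progenitors. Stmn2, a stathmin that regulates microtubules in new neurites, reached 10 RPKM in 43 of 50 cells at E13.5 and in 43 of 52 at E12.5. Slc17a6, the vesicular glutamate transporter VGLUT2, did so in 34 of 50 cells at E13.5 (68%, 53.3 to 80.5%) and in 26 of 52 at E12.5 (50%, 35.8 to 64.2%). Outside the gate Slc17a6 was at that level in 40% of E13.5 and 32.5% of E12.5 cells. Stmn2 was so in 80% of E13.5 and 73% of E12.5 cells outside the gate, and it is therefore not particular to Barhl1 cells. Both genes were together at 10 RPKM in 32 of 50 cells at E13.5 and in 26 of 52 at E12.5. Any of 15 neural progenitor genes reached 10 RPKM in 32 cells at E13.5 and in 42 at E12.5, so cells with progenitor transcripts were inside the gate at both stages.

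Transcripts listed as markers of other neuron classes were also found in cells of the gate. Any of 14 dopamine neuron genes reached 10 RPKM in 28 of 50 cells at E13.5 and in 37 of 52 at E12.5, and their summed level ran from 0.856 to 1022 RPKM at E13.5 and from 0 to 3464 RPKM at E12.5. Any of 10 GABAergic genes did so in 20 cells at E13.5 and 25 at E12.5, and any of 12 genes of red nucleus, motor and serotonergic neurons in 14 cells at E13.5 and 12 at E12.5. Nr4a2, which dopamine neurons need but which is not particular to them, reached 10 RPKM in 23 cells at E13.5 and 23 at E12.5. Together with Th, the enzyme that limits how fast dopamine is made, it did so in 0 of 50 cells at E13.5, which allows a share of up to 6% (3 of 50 cells) or, as the exact upper limit, 7.11%, and in 2 of 52 at E12.5. Gad1 or Gad2, the enzymes that make GABA, were at that level in 5 cells at E13.5 and 2 at E12.5. Of 8 microglial genes 6 were listed at 0 in every cell of the gate at E13.5 and 6 at E12.5, and no cell reached 10 RPKM for any of them. Any of 8 endothelial genes reached 10 RPKM in 3 cells at E13.5 and 1 at E12.5, any of 8 mesenchymal genes in 2 cells at E13.5 and 6 at E12.5, and any of 9 red blood cell genes in 13 cells at E13.5 and 11 at E12.5. The part of these transcripts in the results was not tested.

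Some properties of the libraries moved with stage or with the title series. A median of 4102.5 genes reached 1 RPKM in E13.5 cells of the gate and 4133 in E12.5 cells, and transcripts of the mitochondrial genome took a median of 12.6% of summed RPKM at E13.5 and 9.56% at E12.5. Xist reached 1 RPKM in 49 of 50 cells at E13.5 and in 45 of 52 at E12.5, and a Y-linked gene did so in 0 cells at E13.5 and 1 at E12.5, so genes on chromosomes X and Y were left out of the comparison. The deposited values of a pair of mitochondrial genes followed the stages in blocks. mt-Nd3, a subunit of respiratory complex I, was above 0 in 94.9% of E10.5 cells, in none of 90 E11.5 cells, in none at E12.5 and in 98.6% of E13.5 cells. The mitochondrial tRNA gene mt-Tg was above 0 in 34 E13.5 cells and in none at E12.5. mt-Nd2 and mt-Nd4 were above 0 in nearly all cells of both stages. mt-Nd3 was the only gene above 0 in at least 50% of E13.5 cells and listed at 0 in every E12.5 cell, and the cause was not tested.

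Between the stages, 744 of 9849 genes (7.55%) differed by at least 1 on the log2 scale in the mean of log2(RPKM + 1) over Barhl1 cells, a cut referred to as the fold. At E13.5, 360 genes (3.66%) were higher and 384 (3.9%) lower, with a median difference over all genes of -0.00. A gene entered with at least 1 RPKM in at least 10 of the cells of the gate. The fold is a description and not a test. The same cut between the C and F cells of E12.5 was passed by 2023 genes (20.5% of all genes, 14.4% higher and 6.14% lower in C cells) with 18 and 34 cells, more than between the stages. Against C cells alone 20.1% of genes passed (7.08% higher and 13% lower at E13.5), and against F cells alone 9.77% (5.55% higher and 4.21% lower). Against both C and F cells 1.67% of genes were higher and 1.6% lower at E13.5, and the 15 genes named in each direction were taken from these. In cells outside the gate 2.36% of genes passed, with 1.56% higher and 0.792% lower at E13.5. Of the genes past the fold in Barhl1 cells, 65 also passed it outside the gate in the same direction and 3 in the opposite direction. The cells outside the gate were more numerous than those inside it.

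Of the named genes other than mt-Nd3, the largest increase was that of Foxp2, a forkhead repressor known in humans for its part in speech and present in subthalamic neurons. Foxp2 (chr6:14901349-15441977, plus strand, GRCm38) had a lowest value of 0.281, a median of 655 and a highest value of 3412 RPKM at E13.5, against 0, 225 and 3793 RPKM at E12.5. The ranges overlap widely, but 44 of 50 cells at E13.5 (88%, 75.7 to 95.5%) reached 10 RPKM, against 33 of 52 at E12.5 (63.5%, 49 to 76.4%). The mean log2 level was higher by 2.46 at E13.5, by 3.07 against C cells and by 2.13 against F cells, and by 0.72 outside the gate. Its relative Foxp1 reached 10 RPKM in 29 of 50 cells at E13.5 and in 16 of 52 at E12.5, a difference of 1.62 in the gate and of -1.09 outside it.

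Foxp2 was found together with neuronal genes in a larger share of cells at E13.5. Counted singly, Foxp2 was in 88% of cells at E13.5 and 63.5% at E12.5. Slc17a6 was in 68% at E13.5 and 50% at E12.5, and Stmn2 in 86% at E13.5 and 82.7% at E12.5. Larger joint shares can come from these single shares and are not a separate result on how the genes go together. Foxp2 and Slc17a6 were together at 10 RPKM in 29 of 50 cells at E13.5 (58%, 43.2 to 71.8%) and in 16 of 52 at E12.5 (30.8%, 18.7 to 45.1%). Foxp2 and Stmn2 were together in 38 of 50 cells at E13.5 (76%, 61.8 to 86.9%) and in 28 of 52 at E12.5 (53.8%, 39.5 to 67.8%), with 7 of 18 C cells and 21 of 34 F cells of E12.5.

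Of 18 measured factors of the subthalamic and caudal hypothalamic lineage, 4 were higher by the fold and 2 lower, with a median of -0.00, against 3.66% and 3.9% of all genes. Barhl1, whose level chose the cells, is among the 18 and differed by -0.17. Besides Foxp2 and Foxp1 the higher ones were Foxa1 (difference 1.05), a pioneer factor of the floor plate, and Lmx1b (1.02), the partner of Lmx1a. Lmx1b was higher by 1.45 against C cells and by 0.80 against F cells. Lmx1a itself differed by 0.31, with 35 of 50 cells at E13.5 and 34 of 52 at E12.5 at 10 RPKM. The lower ones were Wnt8b (-1.23), a Wnt ligand of the hypothalamic neuroepithelium, and Nkx2-1 (-1.16), a factor of the ventral hypothalamus, each at 10 RPKM in 7 cells at E13.5 and 15 at E12.5. Nkx2-1 differed by -0.76 against C cells. Dbx1, a progenitor factor that the hypothalamic lineage also expresses, was at 10 RPKM in 18 of 50 cells at E13.5 and 24 of 52 at E12.5, compared with 3.16% of E13.5 and 7.14% of E12.5 cells outside the gate.

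**Figure D2:**
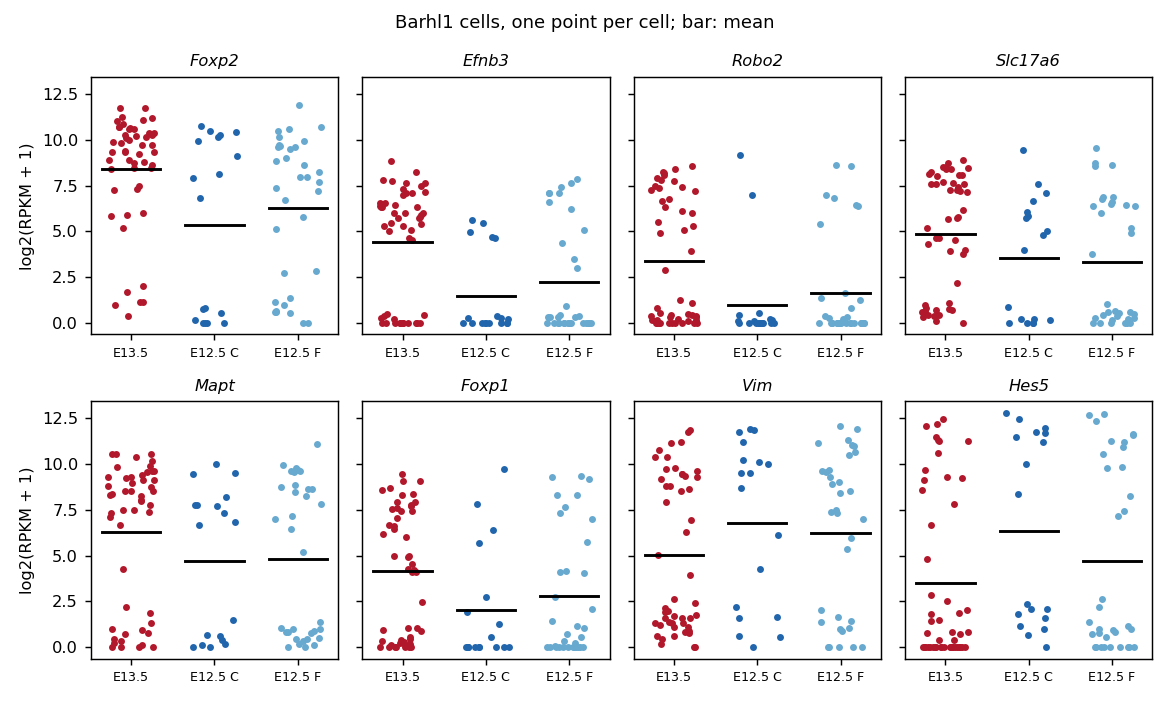
Levels of 8 genes in each Barhl1 cell as log2(RPKM + 1), for E13.5 (left), E12.5 titles C and E12.5 titles F, with a bar at the mean. Each gene is near 0 or high in most cells, so the stages differ mainly in the number of cells in the upper cloud, as for Foxp2 with 44 of 50 cells at E13.5 and 33 of 52 at E12.5.

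A pair of axon guidance genes, Efnb3 and Robo2, were among the named genes higher at E13.5. Efnb3, an ephrin of the B class that acts as a ligand and reverse signal at the membrane (chr11:69554092-69560205, minus strand), had a lowest value of 0, a median of 52.1 and a highest value of 465 RPKM at E13.5, against 0, 0.191 and 235 RPKM at E12.5. It reached 10 RPKM in 34 of 50 cells at E13.5 (53.3 to 80.5%) and in 16 of 52 at E12.5 (18.7 to 45.1%). Efnb3 was also at that level in 75.7% of Barhl1 cells at E10.5 and in 50% at E11.5, so it did not follow one direction over the stages. Outside the gate it was so in 67.4% of E13.5 and 57.9% of E12.5 cells, and it is not particular to Barhl1 cells. Efnb3 was named for its difference in these same cells, so the distance between the intervals is a description only. The difference was 2.42, with 2.92 against C cells and 2.16 against F cells. Robo2, a receptor of Slit ligands that repels axons, was at 10 RPKM in 23 of 50 cells at E13.5 and in 9 of 52 at E12.5, a difference of 1.96. Ephb2, a receptor of B-class ephrins, differed by 1.35, and the ligand Slit2 by 1.01. Epha3, a receptor of A-class ephrins, was lower by the fold (-1.18), as was the chemokine receptor Cxcr4 (-1.04), which differed by -2.57 against C cells and by -0.24 against F cells. Of 28 measured guidance genes, 4 were higher by the fold and 2 lower, against 3.66% and 3.9% of all genes, with a median of 0.43.

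In the cytoskeleton list 5 of 19 genes were higher by the fold and 0 lower, against 3.66% and 3.9% of all genes, with a median of 0.47. Kif5c, a kinesin motor of axonal transport, differed by 1.62, the microtubule-binding tau gene Mapt by 1.51, Stmn3 by 1.38, and Gap43, a growth cone protein, by 1.14. Mapt had a lowest value of 0, a median of 282 and a highest value of 1526 RPKM at E13.5, against 0, 93.9 and 2219 RPKM at E12.5. Tubb2b, a tubulin of migrating and young neurons, differed by 1.02, with 2.65 against C cells and 0.15 against F cells, and the median of the list was 0.77 against C and 0.15 against F cells.

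In the synaptic vesicle list 4 of 21 genes were higher by the fold and 1 lower, against 3.66% and 3.9% of all genes, with a median of 0.63. Outside the gate 3 of the 21 were higher by the fold and 0 lower, against 1.56% and 0.792% of all genes, with a median of 0.52. Among the higher ones were the vesicle GTPases Rab3a (1.35) and Rab3c (1.27) and the fusion protein Stx1a (1.02), and the lower one was Syt11 (-1.09), a synaptotagmin that does not bind calcium. Among 16 genes of synaptic adhesion and scaffolds, 3 were higher by the fold and 0 lower, against the same shares of all genes, with a median of 0.55. These were Lsamp, a cell adhesion protein that guides limbic axons, Cntnap2 (1.43), a neurexin-like protein at axons, and Nrxn2 (1.08). Lsamp was at 10 RPKM in 21 of 50 cells at E13.5 (28.2 to 56.8%) and in 6 of 52 at E12.5 (4.4 to 23.4%), with a difference of 2.15.

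Of 12 measured genes of neuropeptides and dense-core vesicles 3 were higher by the fold and 0 lower, against 3.66% and 3.9% of all genes, with a median of 0.12. Chgb, a granin of secretory granules, was at 10 RPKM in 23 of 50 cells at E13.5 and in 15 of 52 at E12.5, with medians of 3.06 RPKM at E13.5 and 0.681 RPKM at E12.5 (difference 1.87). Cck, the cholecystokinin precursor, differed by 1.25 with 9 cells at 10 RPKM at E13.5 and 1 at E12.5, and Chga by 1.12, which was 0.23 against C cells and 1.59 against F cells. None of 12 neurotransmitter receptor genes passed the fold, with a median of 0.26. Of 15 voltage-gated channel genes only Scn3b did, against 7.55% of all genes in either direction, a beta subunit of sodium channels at 10 RPKM in 20 of 50 cells at E13.5 and 9 of 52 at E12.5 (difference 2.08).

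Of 25 postmitotic transcription factors 2 were higher by the fold, against 3.66% of all genes, the zinc finger homeobox gene Zfhx4 (1.29) and the TALE homeobox gene Pbx3 (1.15), and none was lower. Of 18 neuronal RNA-binding proteins 2 were higher, against the same share of all genes, the splicing and stability factors Celf2 (1.90) and Celf4 (1.58), and none was lower. Celf2 was higher by 0.86 against C cells and by 2.46 against F cells. Among 10 early response and heat shock genes Fos alone passed the fold (1.12), against 7.55% of all genes in either direction. Outside the gate Fos differed by 1.59.

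Of 13 measured genes of the neural progenitor list 7 were lower by the fold and 0 higher, against 3.9% and 3.66% of all genes, and the median was -1.02. Hes5, the Notch target shown above, had a lowest value of 0, a median of 0.714 and a highest value of 5592 RPKM at E13.5, against 0, 3.41 and 7057 RPKM at E12.5. It reached 10 RPKM in 16 of 50 cells at E13.5 (32%, 19.5 to 46.7%) and in 23 of 52 at E12.5 (44.2%, 30.5 to 58.7%), intervals that overlap. The difference was -1.77, with -2.84 against C cells, -1.21 against F cells and -1.52 outside the gate. Vim, the intermediate filament vimentin of radial glia, had medians of 4.71 RPKM at E13.5 and 261 RPKM at E12.5, a difference of -1.42. Fabp7, a lipid-binding protein of radial glia, differed by -1.41 (-3.06 against C cells and -0.54 against F cells), Hes1 by -1.12 and Notch1 by -1.02. The median of the list was -1.67 against C cells, -0.54 against F cells and -0.23 outside the gate.

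In the proneural list 4 of 18 genes were lower by the fold and 0 higher, against 3.9% and 3.66% of all genes, with a median of -0.40. These were Mfng (-1.74), a glycosyltransferase that modifies Notch, the cell cycle inhibitor Cdkn1c (-1.29), the stress and cell cycle exit gene Gadd45g (-1.14) and the Notch ligand Dll1 (-1.07). Mfng reached 10 RPKM in 14 of 50 cells at E13.5 and in 25 of 52 at E12.5. Of 13 cell cycle genes 2 were lower by the fold, cyclin A2 (Ccna2, -1.11) and the replication helicase subunit Mcm5 (-1.04), and 0 higher, against the same shares of all genes, with a median of -0.66. Mki67 or Top2a, markers of dividing cells, were at 10 RPKM in 2 of 50 cells at E13.5 and in 7 of 52 at E12.5.

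Every Barhl1 cell of both stages had either Hes5 or Stmn2 at 10 RPKM. The exact upper limits for cells with neither are 7.11% at E13.5 and 6.85% at E12.5. Stmn2 without Hes5 was found in 34 of 50 cells at E13.5 and in 29 of 52 at E12.5, both genes together in 9 cells at E13.5 and 14 at E12.5, and Hes5 without Stmn2 in 7 cells at E13.5 and 9 at E12.5. Outside the gate the 2 genes were together in 1.05% of E13.5 and 8.73% of E12.5 cells. Neither gene was at 10 RPKM in 5.26% of E13.5 and 6.35% of E12.5 cells there, so having at least 1 of them is not particular to Barhl1 cells. Doublets were not called, and their part in cells with both genes was not tested.

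**Figure D3:**
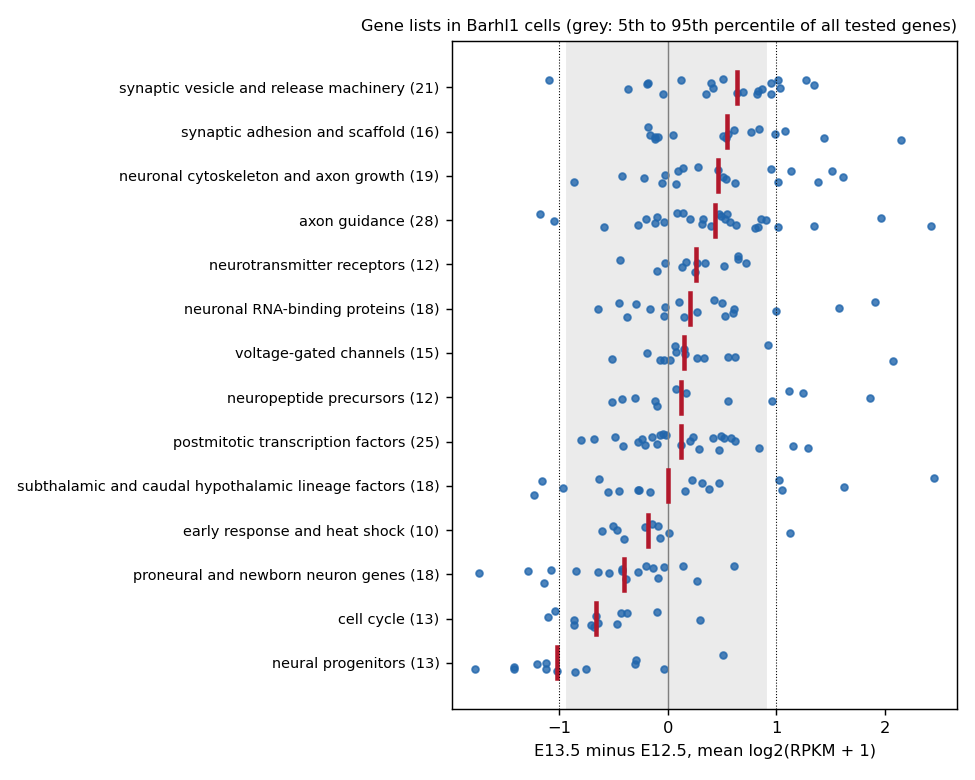
Difference of mean log2(RPKM + 1), E13.5 minus E12.5, for each measured gene (blue) of 14 lists in Barhl1 cells, with list medians in red, the number of measured genes in brackets and dotted lines at the fold of 1. The neural progenitor list has the lowest median (-1.02) and the synaptic vesicle list the highest (0.63), and most genes lie inside the grey band between the 5th and 95th percentiles of all genes.

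Restricting the comparison to neurons, that is to cells of the gate with both Slc17a6 and Stmn2 at 10 RPKM, left 32 cells at E13.5 and 26 at E12.5. In these cells 13.8% of genes passed the fold, 912 (9.26%) higher and 443 (4.5%) lower at E13.5, which is a larger count from fewer cells. The progenitor median became -0.11, with none of the 13 genes past the fold, that of the cell cycle list -0.05 and that of the proneural list 0.04, with 1 proneural gene higher and 1 lower by the fold, against a median of 0.11 over all genes. These cells were chosen by neuronal genes, and no neuron of either stage had Mki67 or Top2a at 10 RPKM. Smaller progenitor, cell cycle and proneural differences can come from that choice and are not a separate result. Foxp2 was at 10 RPKM in 28 of 32 neurons at E13.5 and in 16 of 26 at E12.5, with medians of 753 RPKM at E13.5 and 130 RPKM at E12.5 (difference 2.81). Foxp1 reached that level in 18 of 32 neurons at E13.5 and in 5 of 26 at E12.5. Efnb3 (2.86), Robo2 (2.36) and the synaptic vesicle median (0.63) were also as large as in the whole gate, whereas the cytoskeleton median was 0.09. Slc17a6, whose level chose these cells, differed by 0.36 among them and by 1.46 in the whole gate. Stmn2, which also chose them and is a member of the cytoskeleton list, differed by 0.34 among them and by 0.62 in the whole gate. The cytoskeleton median in neurons can therefore come in part from that choice, which was not tested. Of the genes past the fold in the whole gate, 73.9% of the higher and 42.4% of the lower ones passed it in the same direction here.

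Beside mt-Nd3, Foxp2, Efnb3, Lsamp, Scn3b, Robo2 and Chgb, the higher genes named had differences from 1.89 to 2.15. Ptpn5, the neuronal phosphatase STEP, was at 10 RPKM in 30 of 50 cells at E13.5 and in 15 of 52 at E12.5 (difference 2.15). Sez6l, a membrane protein of neurons, was at that level in 24 cells at E13.5 and 10 at E12.5 (1.98), and it also passed the fold outside the gate (1.11). Ly6h, which modulates nicotinic receptors, was at 10 RPKM in 35 of 50 cells at E13.5 and in 22 of 52 at E12.5 (2.05). The others were Vps4a, an ATPase of membrane scission (2.04), Spin1, a reader of histone methylation (1.97), Tmem145 (1.95), the zinc transporter Slc39a6 (1.93) and Cd276, a surface protein of the B7 family (1.89). Vps4a overlaps Pdf and Slc39a6 overlaps Elp2 on the opposite strand, and since the use of strand in counting is not given, reads of such pairs cannot be told apart.

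The most decreased genes were of mixed function. Phactr4, a regulator of protein phosphatase 1 needed for neural tube closure, had a median of 0 RPKM at E13.5 and 39.7 RPKM at E12.5. It reached 10 RPKM in 12 of 50 cells at E13.5 (13.1 to 38.2%) and in 31 of 52 at E12.5 (45.1 to 73%), a difference of -2.32 in the gate and of -0.08 outside it. Rnf220, a ubiquitin ligase, was at 10 RPKM in 14 of 50 cells at E13.5 and in 32 of 52 at E12.5, with differences of -2.20 in the gate and 0.04 outside it. Rnd3, an atypical small GTPase that lowers contractility in migrating neurons, was at 10 RPKM in 32 of 50 cells at E13.5 and in 42 of 52 at E12.5 (-2.04). Nop56, a core protein of snoRNA particles, was at that level in 24 of 50 cells at E13.5 and in 39 of 52 at E12.5 (-2.02). Nop56 shares its locus with snoRNA genes and overlaps Idh3b.

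The remaining lower genes differed by -2.23 to -1.78. Among them were Arl4a, a small GTPase (-2.23), Cog1 of the Golgi tethering complex (-2.17), the mitochondrial ribosome gene Mrpl38 (-1.97), Gm9774 (-1.92), the zinc finger gene Zkscan3 (-1.90), Xbp1, a factor of the unfolded protein response (-1.86), 2610017I09Rik (-1.84), Sike1 (-1.83) and the calcium-binding protein Calu (-1.78). Cog1 overlaps Fam104a on the opposite strand. In neurons 4 of the lower named genes were inside the fold: Arl4a (-0.21), Xbp1 (-0.43), Hes5 (-0.52) and 2610017I09Rik (-0.69).

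**Figure D4:**
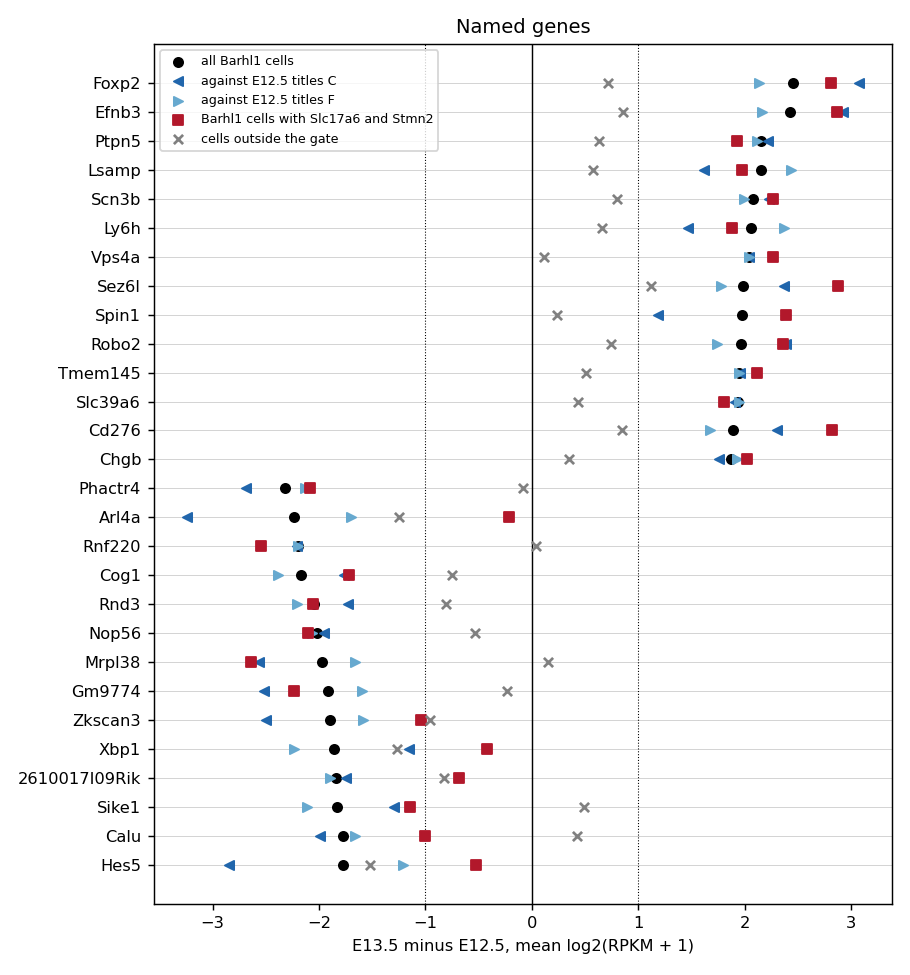
Difference of mean log2(RPKM + 1), E13.5 minus E12.5, for the genes named in the text other than mt-Nd3, in all Barhl1 cells, against each E12.5 title series, in Barhl1 cells with Slc17a6 and Stmn2, and in cells outside the gate, with dotted lines at the fold. Foxp2 is at 2.46 in the gate and 0.72 outside it, and Hes5 at -1.77 in the gate, -0.52 in neurons and -1.52 outside.

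The earlier stages place the 2 compared stages in a longer series, which begins with 37 Barhl1 cells of E10.5 and 26 of E11.5. Slc17a6 was at 10 RPKM in 2, 11, 26 and 34 Barhl1 cells of the 4 stages in order, Stmn2 in 2, 14, 43 and 43, and Mapt in 2, 8, 28 and 35. As shares, Mapt was at 5.4%, 30.8%, 53.8% and 70%, higher at each later stage. Mki67 or Top2a were at that level in 30, 2, 7 and 2 cells, so that the high share was at E10.5. Foxp2 did not follow one direction, with 83.8%, 57.7%, 63.5% and 88%. At E10.5 Foxp2 was with Stmn2 in 2 of 37 cells, which were the only ones with Stmn2. At E13.5 the genes were together in 38 of 50 cells, and 43 had Stmn2. Hes5 was highest at E11.5 with 57.7%, after 21.6% at E10.5 and before 44.2% and 32%. All neighbouring stages have overlapping intervals, with 9.83 to 38.2% at E10.5 and 36.9 to 76.6% at E11.5.

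**Figure D5:**
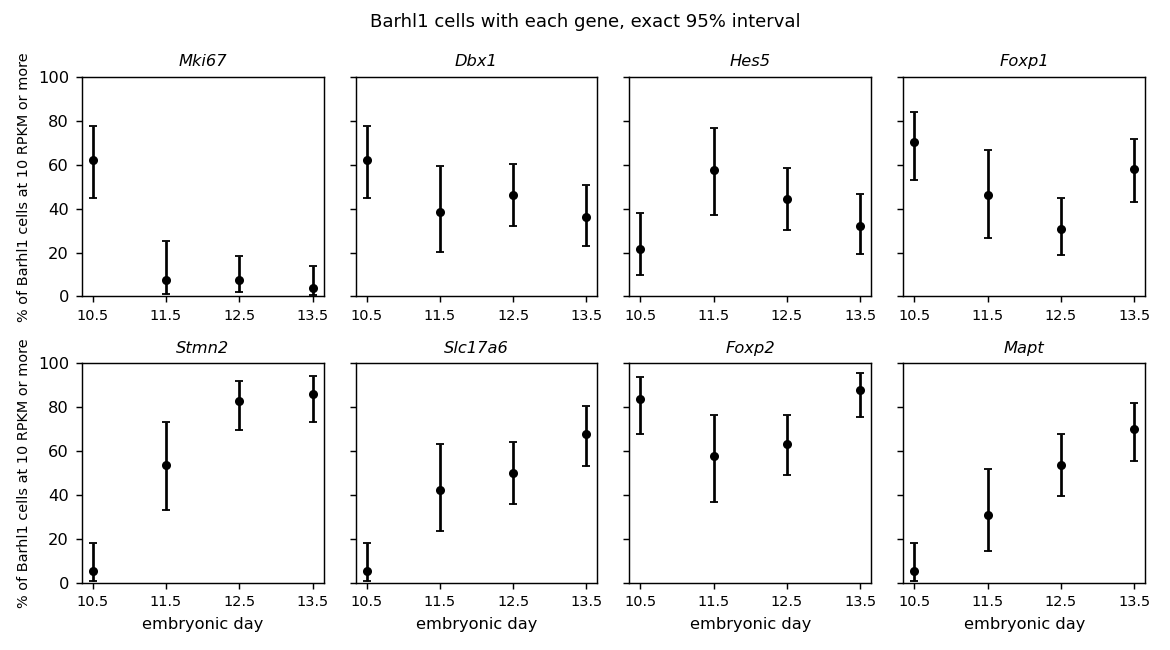
Percentage of Barhl1 cells with 8 genes at 10 RPKM or more from E10.5 to E13.5, with exact 95% intervals of counting error. Slc17a6 and Mapt are higher at each later stage, and Foxp2 is high at E10.5 (83.8%) and again at E13.5 (88%).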

How the data were processed

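Per the labels, Smart-seq2 cDNA of single ventral midbrain cells was made into Nextera XT libraries and read on a HiSeq 2000. STAR 2.3.0 and mm10 come from the submitters' processing notes. How reads were counted, filtered or assigned to strands is not given in the labels or file headers. The authors deposited log2(RPKM + 0.001), and this was turned back into RPKM. At the best of many depths tried in each cell, a median of 20.4% of low values lay within 0.05 of whole reads. Random values at a single depth would give 10%, which is not a like comparison, and depth is unknown. No 2 cells had identical values.

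Groups follow the labels. The difference is the mean over cells of log2(RPKM + 1) at E13.5 minus that at E12.5, which understates the change of low genes. Genes on X or Y were left out, using chromosomes from GENCODE M21 for 9316 genes and from RefSeq for 405, while 128 were unplaced. Genes were named by difference, mean level (10 RPKM), share of cells (40%) and a difference of at least 1 against both E12.5 title series. The members and gene lists were chosen with earlier results of these data known, and the gene combinations per cell after their values were seen. The calculation was tested on simulated data. Python 3.11.15, numpy 2.4.6, pandas 2.3.3 and scipy 1.17.1 were used. Some listed genes are withheld from the text, although counts and medians include them.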

Additional observations from a re-analysis of the deposited data

How the results depend on the processing

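Gate shares kept their value within counting error at gates of 5, 20 and 50 RPKM. The count of higher genes was 360 and of lower genes 384. It became 697 higher and 1278 lower with E12.5 titles C alone, 547 higher with titles F alone, 912 higher in cells with Slc17a6 and Stmn2, and 1122 higher and 658 lower in cells with at least 4000 genes, all of these with fewer cells. A pseudocount of 0.1 gave 1121 higher and 1022 lower, and one of 10 gave 29 and 31. Higher genes made up 48.4% of those past the fold, 35.3% with titles C, 67.3% in cells with Slc17a6 and Stmn2, and 63% in cells with at least 4000 genes. Hes1 reversed to 0.28 in cells with Slc17a6 and Stmn2, and the cause was not tested. Of 30 named genes, 26 passed the fold in the same direction in those cells, 29 in cells with at least 4000 genes and in non-dividing cells, and 28 with a pseudocount of 10. The genes were named for their differences in the same cells that these settings reuse, so the counts are a description and not a test. They include mt-Nd3, which was listed at 0 in every E12.5 cell. No paired analysis was possible because each stage is 1 sample and the cells carry no number shared between stages. Depth per cell is unknown, and scatter between few cells alone can carry a gene past the fold.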
